A study of Homo sapiens and Mus musculus with 69 samples.

Results

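RNA-Seq of H524 cells that carried an inducible *NOTCH1* vector but received no inducer was set against RNA-Seq of the parental H524 cells. The comparison rests on 6 of the 69 libraries of the series, which are the 3 libraries labelled H524_NOTCH1_no_dox (numbers 22, 23 and 24) and the 3 labelled H524_parental (numbers 19, 20 and 21), chosen by those labels alone. It asks how far the uninduced line, which is the baseline for the doxycycline-treated cells, already differed from the cells it was made from. The study dealt with Notch signaling in small cell lung cancer (SCLC) and sequenced polyA RNA of human and mouse SCLC lines with and without expression of the NOTCH1 intracellular domain (N1ICD), REST or drug treatment. H524 (NCI-H524) is an established SCLC line of the *NEUROD1* type. The *N1ICD* cells had been transduced with a lentiviral, doxycycline-inducible vector for the human domain, selected with puromycin or blasticidin and kept on the drug, and they are called uninduced *N1ICD* cells here. The sources used here do not say whether this line was a clone or a pool, whether the parental cells were passaged for as long, or whether any line carried an empty vector. A second engineered line, with an inducible *REST* vector and also without doxycycline (H524_REST_no_dox, 3 libraries), shows what another such line looked like. The same pair of groups in H82 and H69 cells, 6 libraries for each line, shows what the same vector came with in other SCLC lines. The labels give no culture time, and nothing says that the 3 libraries of a group came from separate cultures, so the spread between libraries may be technical. For the main comparison, *P* values rest on the spread within groups, pooled over all 15 H524 libraries. Among H524 groups, the widest pairs of libraries belonged to the parental and uninduced *N1ICD* groups, as given below. For overexpression, the paper states that adherent cells were collected after long-term culture with doxycycline. Culture time and attachment may thus also differ between doxycycline-treated and uninduced cells, which was not tested.

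Notch receptors are cut when they bind ligands of the Delta and Jagged families on a neighbouring cell, and the freed intracellular domain joins RBPJ in the nucleus and turns on genes such as *HES1* and *HEY1*. In SCLC, Notch activity is known for moving cells from a neuroendocrine state, with secretory granules and neuronal genes, toward a state without them, in part through the repressor REST. Reverse-tetracycline vectors can leak, and a population that passes through transduction and drug selection can also start from fewer cells than the parental culture held. None of this is a result of these data.

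The values are log2(RPKM + 1), so every log2 fold change below is on that scale and understates changes of genes near 0. Each uninduced library correlated best with another library of its own group (*r* = 0.959 to 0.966 over the genes tested) and less with any library of another cell line (at most 0.883). *NEUROD1*, at 14.27, 13.07 and 14.02 in parental cells and 13.49, 14.62 and 13.92 in uninduced *N1ICD* cells was high in both groups. Among genes with a mean of at least 4, the SD of the difference between a pair of libraries was 0.624 to 0.897 for uninduced *N1ICD* cells and 0.448 to 0.792 for parental cells, against 0.242 to 0.280 for *N1ICD* cells with doxycycline, 0.135 to 0.469 for uninduced and 0.329 to 0.533 for doxycycline-treated *REST* cells. The parental libraries 20 and 21 correlated best with a library of uninduced *REST* cells (*r* = 0.974 and 0.981). Library 23 stood apart in the first group and library 20 in the second, and results are also given without both. Library sizes, which could only be had relative to each other, were 0.631 times the median of the H524 libraries for library 20 and 0.863 to 1.18 for the other 5. Of the defining lymphocyte markers *PTPRC*, *CD3D*, *CD3E* and *CD2* were listed at 0 in all 6 libraries, and the summed level of the 7 fibroblast markers was 1.86 to 2.93 RPKM in parental and 1.76 to 4.56 RPKM in uninduced *N1ICD* cells. Those sums differed for 6 epithelial markers (5.23 to 8.00 RPKM against 14.5 to 35.6) and for 6 myeloid markers (1.54 to 4.63 RPKM against 5.58 to 16.1, with *TYROBP* at 0 throughout). Bulk RNA cannot tell a change in the number of cells of a kind from a change in RNA per cell.

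*NOTCH1*, the gene whose intracellular part the vector carries, was low in both groups. It had log2 values of 0.24, 0.23 and 0.73 in parental cells and 0.79, 1.28 and 1.52 in uninduced *N1ICD* cells, against 7.58, 8.29 and 8.31 with doxycycline and 0.53, 0.46 and 0.49 in uninduced *REST* cells. The 3 uninduced libraries lay above the 3 parental ones, the lowest of them by a small margin. Its log2 fold change of 0.80 (standard error 0.27, adjusted *P* = 0.0419 by limma) passed the test of *P* but stayed under the 1 log2 unit required for a call. With a pseudocount of 0.1 in place of 1, or without library 22, it was called. The values do not separate RNA from the vector from that of the endogenous gene (chromosome 9, 139388885 to 139440500 of GRCh37, minus strand). Of the direct Notch target genes, *HES1* was 0.34, 0.58 and 0.11 in parental cells and 0.53, 0.77 and 0.37 in uninduced cells (log2 fold change 0.21, standard error 0.23, adjusted *P* = 0.507), and 4.25, 5.15 and 4.59 with doxycycline. *HEY1* was 1.30, 1.33 and 1.40 against 1.56, 1.83 and 0.86 (log2 fold change 0.07, standard error 0.23, adjusted *P* = 0.844), and 4.47, 4.74 and 5.08 with doxycycline. For both genes the uninduced and parental libraries overlapped, and the doxycycline-treated libraries were above all of them. Other target genes did differ without overlap of the groups, in both directions and by less than 1 log2 unit. *HEYL* was higher (means 0.808 in parental and 1.45 in uninduced cells, adjusted *P* = 0.041 by limma). *HES7* was lower (means 1.77 and 0.892, adjusted *P* = 0.0397 by limma). *HES1*, *HEY1*, *HEYL* and *HES7* were picked for the text after their values were seen, and the called target genes are given below.

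Of 13648 genes tested, 1651 (12.1%) differed between uninduced *N1ICD* and parental cells by limma (adjusted *P* under 0.05, with a difference of 1 or more log2 units in either direction). Of these, 674 were higher (4.94% of genes tested) and 977 lower (7.16%) in the uninduced *N1ICD* cells, and the median over all genes tested was -0.033. Differences of at least 3 on the log2 scale were found for 40 higher and 36 lower genes. The groups did not overlap for 4171 genes (30.6%), 1490 of them among those called. The count depends on where the spread is estimated. With only these 6 libraries in the model, instead of all 15 H524 libraries, 548 genes were called (204 higher and 344 lower), 544 of them among the 1651. Without libraries 20 and 23, 1962 genes were called (655 higher and 1307 lower), of which 1292 were among the 1651. The share of calls that was higher was 33.4%, against 40.8% with all libraries, as more genes were called lower.

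**Figure D1:**
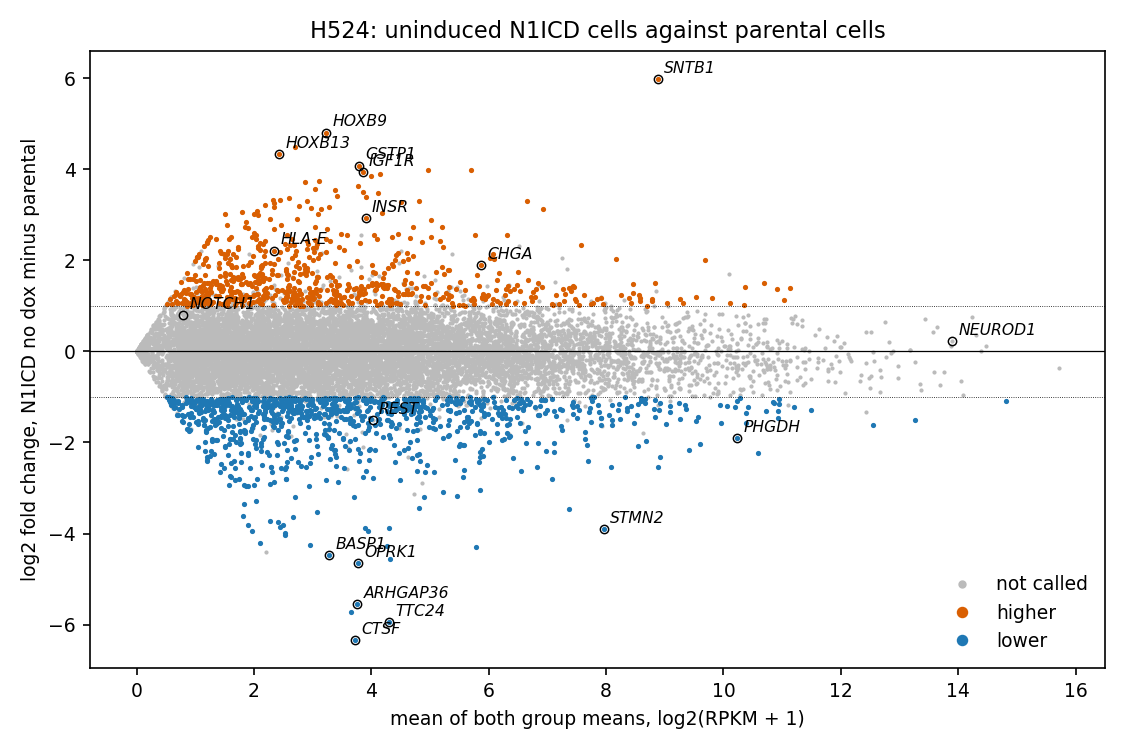
Each point is a gene tested, placed by the mean of the parental and uninduced *N1ICD* group means (x axis, log2(RPKM + 1)) and by the log2 fold change between them (y axis), with 674 genes called higher in orange, 977 called lower in blue and the rest in light grey. *SNTB1* stands highest at 5.99 and *CTSF* lowest at -6.33, while *NEUROD1*, at the right, and *NOTCH1*, at the left, lie among genes that were not called.

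*SNTB1*, which encodes β1-syntrophin, an adaptor of the dystrophin complex, had log2 values of 6.53, 5.00 and 6.12 in parental cells and 12.35, 11.29 and 11.96 in uninduced *N1ICD* cells. It was 10.36, 10.42 and 10.50 with doxycycline and 1.67, 2.19 and 2.11 in uninduced *REST* cells. The 3 H524 populations without doxycycline thus held 3 separate levels of *SNTB1* (log2 fold change over parental cells 5.99, standard error 0.35, adjusted *P* = 2.36e-07). *IGF1R*, the receptor of insulin-like growth factors (chromosome 15, 99191768 to 99507759 of GRCh37), was 2.08, 1.63 and 1.94 in parental cells and 5.34, 6.19 and 5.94 in uninduced *N1ICD* cells. Its log2 fold change was 3.94 (standard error 0.19, adjusted *P* = 5.61e-08). *INSR*, the insulin receptor (chromosome 19, 7112266 to 7294425), was higher as well, at 5.21, 5.72 and 5.18 over 2.71, 1.97 and 2.63 in parental cells, and with doxycycline *IGF1R* was 4.89, 5.04 and 5.07 and *INSR* 5.17, 5.27 and 5.37. In uninduced *REST* cells *IGF1R* was 1.80, 1.78 and 1.73, near the parental level, whereas *INSR* was 0.09, 0.05 and 0.00, below it.

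*GSTP1*, a glutathione S-transferase that detoxifies electrophiles (chromosome 11, 67351213 to 67354127), was 1.49, 1.89 and 1.87 in parental cells and 5.83, 6.12 and 5.54 in uninduced *N1ICD* cells. In uninduced *REST* cells it was listed at 0 in all 3 libraries. *TAGLN2*, an actin-binding protein of the transgelin family, showed the same order, with 5.65, 5.21 and 4.61 in uninduced *N1ICD* cells, 1.70, 1.58 and 1.58 in parental cells and at most 0.04 in uninduced *REST* cells. For both genes all 3 populations were apart without overlap. *FBXO17*, a substrate-binding subunit of SCF ubiquitin ligases, was 0.72, 0.49 and 0.13 in parental and 4.07, 5.73 and 5.01 in uninduced *N1ICD* cells. *ACTRT3*, an actin-related protein, *PNPLA5*, a lipase of the patatin family, and *HBA2*, an α-globin gene whose reads may be shared with *HBA1*, were higher by 3.98, 3.91 and 3.99, but their parental libraries were spread over 2.08 to 4.34, 0.00 to 3.47 and 1.88 to 4.95. *SYNM* (synemin, an intermediate filament protein), *SHANK1* (a scaffold of synapses), *LRRC28*, *CRYBA2* and *LINC00899* were higher by 3.57 to 3.84. The calls for *PNPLA5*, *HBA2* and *LRRC28* were lost with only the 6 libraries in the model, while those for the other higher genes named in these 2 paragraphs held in all 13 alternatives.

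The genes with the widest margin below the parental level were in several cases close to absent. *CTSF*, the lysosomal protease cathepsin F (chromosome 11, 66330935 to 66336350), was 6.86, 6.97 and 6.84 in parental cells and 0.35, 1.33 and 0.00 in uninduced *N1ICD* cells. The log2 fold change was the lowest of all genes called (-6.33, standard error 0.26, adjusted *P* = 2.88e-08). It was 6.41, 6.49 and 6.39 in uninduced *REST* cells and 0.34, 0.51 and 0.23 with *N1ICD* and doxycycline, so the low level was found in all 6 libraries with the *NOTCH1* vector and in none of the other 6. *EFHC2*, an EF-hand protein, was listed at 0 in all 3 uninduced and all 3 doxycycline-treated *N1ICD* libraries, and was 3.83, 4.17 and 3.82 in parental cells. *OPRK1*, the κ-opioid receptor, was 6.29, 5.28 and 6.71 in parental and 0.51, 2.91 and 0.94 in uninduced *N1ICD* cells. *ARHGAP36* (on the X chromosome) was 7.42, 5.67 and 6.52 in parental and 2.03, 0.72 and 0.20 in uninduced *N1ICD* cells, and with 5.06, 3.53 and 3.65 uninduced *REST* cells lay between them.

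A group of these genes lies on the short arm of chromosome 5. *IRX1* and *IRX2*, homeobox genes of the Iroquois family (3595946 to 3601517 and 2745959 to 2751791 of GRCh37), were lower together. *IRX1* was 4.62, 4.80 and 4.19 in parental and 0.40, 0.46 and 0.66 in uninduced *N1ICD* cells (log2 fold change -4.03, standard error 0.19, adjusted *P* = 3.64e-08), and *IRX2* was 6.03, 5.80 and 5.89 against 2.58, 1.77 and 1.55. *ADCY2*, an adenylate cyclase (7396251 to 7830194), was listed at 0 in all 3 uninduced libraries after 4.98, 4.43 and 3.20 in parental cells. *BASP1*, a membrane protein of growth cones (17065707 to 17276952), was 5.56, 5.92 and 5.07 against 1.08, 1.57 and 0.46, and *GDNF*, a neurotrophic factor (37812779 to 37840143), was 5.83, 3.04 and 4.69 against 0.20, 1.09 and 0.34. The 10 Mb windows that hold these genes had negative medians too, -0.422 over the 36 genes tested in the first 10 Mb of the chromosome (9 lower and 3 higher), -0.393 over 13 genes from 10000001 to 20000000 (4 lower) and -0.378 over 30 genes from 30000001 to 40000000 (5 lower), while the median of the whole chromosome was -0.0555 over 613 genes. Of all genes tested, 4.94% were called higher and 7.16% lower. The 5 named genes were expressed in uninduced *REST* cells, from 2.00 for *ADCY2* to 6.72 for *IRX2*. The 2.00 of *ADCY2* was below its lowest parental library (3.20). With doxycycline 4 of the 5 genes stayed low and *IRX2* was 3.63, 4.09 and 4.06.

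Other genes low in uninduced *N1ICD* cells behaved differently with doxycycline. *CPS1*, the entry enzyme of the urea cycle, was 6.52, 6.87 and 6.41 in parental cells, 0.95, 3.02 and 2.18 in uninduced and 5.19, 5.39 and 5.58 in doxycycline-treated *N1ICD* cells. *MIR143HG*, the host transcript of miR-143 and miR-145, was 7.75, 7.23 and 4.54, then 0.00, 2.36 and 0.00, then 12.84, 13.44 and 13.04. For these 2 genes the uninduced line was the low end of the 3 groups, and set against it the doxycycline-treated cells differ more than they do from parental cells. The direction also turned for *CPS1*, whose doxycycline-treated libraries were above the uninduced but below the parental ones. For *MIR143HG* they were above both. *TTC24* was 7.59, 7.46 and 6.78 in parental cells and 0.00, 4.01 and 0.00 in uninduced cells, the value of 4.01 being that of library 23. *GKAP1*, *CSDC2* and *C14orf23* were lower by 4.25 to 4.29. The calls of all genes in these 3 paragraphs held in every alternative.

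**Figure D2:**
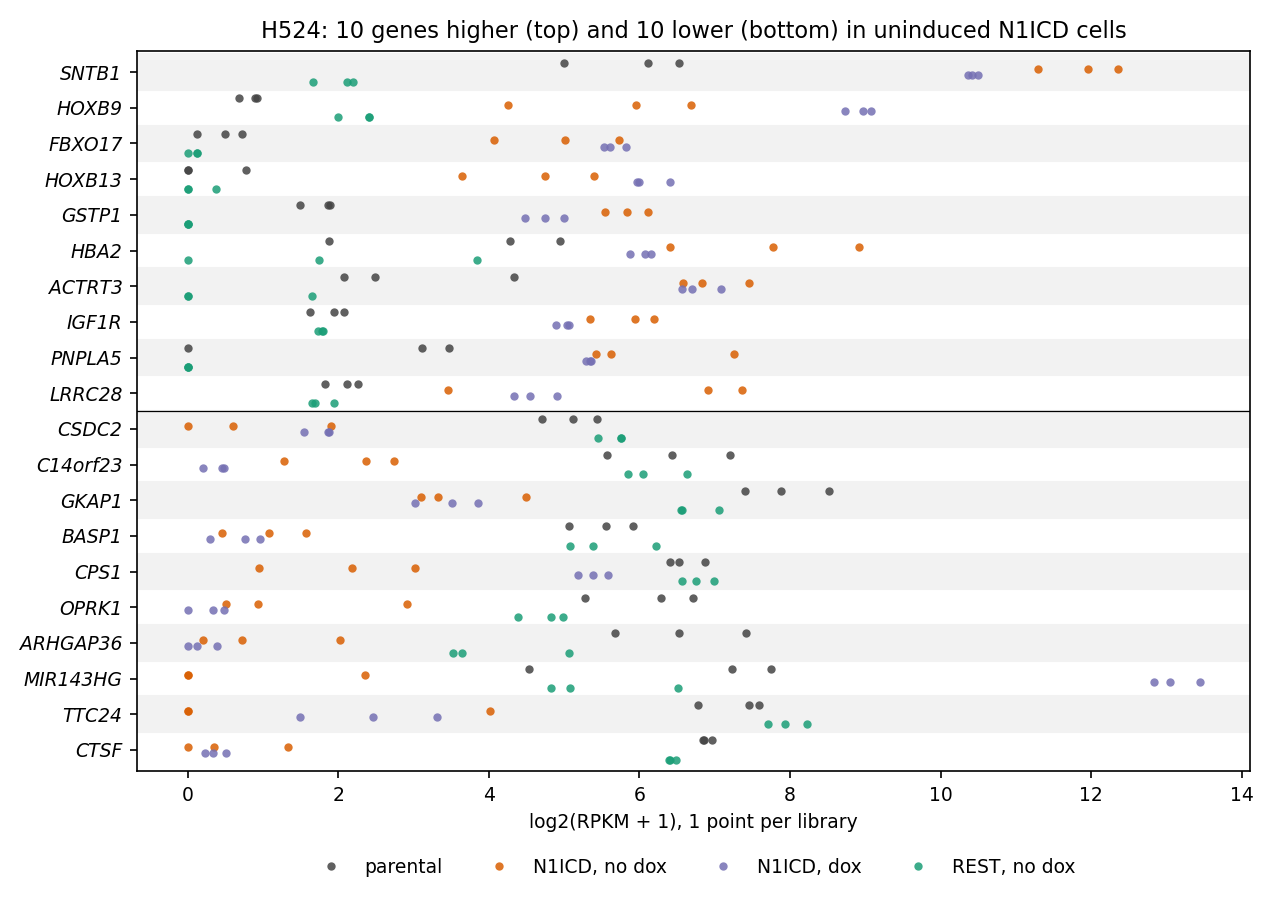
Log2(RPKM + 1) of the 10 genes called highest and the 10 called lowest in uninduced *N1ICD* cells, 1 point for each library of parental, uninduced *N1ICD*, doxycycline-treated *N1ICD* and uninduced *REST* cells. Orange (uninduced *N1ICD*) and dark grey (parental) points do not overlap for any of the 20 genes, by the rule that chose them, and most of the purple (doxycycline) points lie near the orange ones, with *MIR143HG* at 12.84 to 13.44 as the widest exception.

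Homeobox genes of the HOX clusters, which specify position along the body axis, were among the higher genes. Of 34 tested, 10 were higher and 1 lower (*HOXD4*), which is 32.4% called against 12.1% of all genes, with a median log2 fold change of 0.615 against -0.033 over all genes. The median of the list ran from 0.332 to 0.857 over the alternatives, and moved when library 20, 22 or 24 was left out. *HOXB9* was 0.92, 0.68 and 0.89 in parental cells and 4.26, 5.95 and 6.68 in uninduced *N1ICD* cells (log2 fold change 4.80, standard error 0.48, adjusted *P* = 2.5e-05). *HOXB13* was 0.77, 0.00 and 0.00 against 3.65, 4.74 and 5.40 (4.34, standard error 0.35, adjusted *P* = 4.62e-06), and *HOXB7* was 0.40, 0.24 and 0.17 against 2.21, 3.79 and 3.98. In each of the 3 genes, library 22 was the lowest of the uninduced libraries and still above all parental ones. With doxycycline *HOXB9* was 8.73 to 9.08, *HOXB13* 5.97 to 6.41 and *HOXB7* 4.08 to 4.25, while uninduced *REST* cells had 2.00 to 2.41, 0.00 to 0.38 and 0.15 to 0.46. The genes lie within 1 cluster of chromosome 17, where *HOXB13* starts at 46802125 and *HOXB7* at 46684594 (GRCh37, minus strand). Within the cluster *HOXB4* was also higher, *HOXB2*, at means of 6.31 and 6.15, was not, and *HOXB5*, *HOXB6* and *HOXB8* were under 0.5 in both means. The other called members were *HOXC10*, *HOXC11*, *HOXC12*, *HOXC13*, *HOXD10* and *HOXD13*, all of the posterior part of their clusters. *HOXC12* was listed at 0 in all parental libraries and was 1.08, 3.31 and 3.15 in uninduced *N1ICD* cells. *HOXC10* was 4.40, 3.91 and 3.90 against 5.92, 6.49 and 6.70, and *HOXD10* 3.94, 4.44 and 4.34 against 5.79, 6.32 and 5.83. None of the *HOXA* genes tested was called, although the means of *HOXA7* were 5.61 and 7.07. *HOXA7*, *HOXB2*, *HOXB4*, *HOXC10* and *HOXD10* were named after their values were seen. With only the 6 libraries in the model 5 HOX genes were called, all higher, and without libraries 20 and 23 there were 8 higher and 0 lower.

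None of the 3 Notch receptors tested was called, although *NOTCH2* was 1.54, 1.64 and 2.03 in parental and 0.80, 0.84 and 1.18 in uninduced *N1ICD* cells (log2 fold change -0.79, adjusted *P* = 0.015). Of 8 ligands and related proteins, *DLL4* and *JAG2* were higher and *DNER* was lower (37.5% called, against 12.1% of all genes). *DLL4* was 3.61, 3.14 and 3.74 in parental and 5.89, 4.56 and 4.28 in uninduced *N1ICD* cells, and *JAG2* 2.48, 2.05 and 1.85 against 4.53, 4.18 and 2.84. *DNER*, a Delta-like neuronal protein, was 2.47, 3.11 and 3.27 against 0.45, 0.06 and 0.14, a log2 fold change of -2.73 (standard error 0.31, adjusted *P* = 7.05e-05) that held in all alternatives. *DLL4* and *JAG2* lost their calls with only the 6 libraries in the model, and *DLL4* also lost its call without library 22. Of 12 target genes, *MYC* was higher and *HEY2* lower (16.7% called), and the median of the list was -0.0209. *HEY2* was 4.28, 4.47 and 4.03 against 2.82, 3.82 and 2.45, and the level in uninduced *REST* cells was 2.89 on average. None of 26 genes of the signaling machinery was called (4 had an adjusted *P* under 0.05 by limma with a difference under 1), but without libraries 20 and 23 the machinery had 4 and the target genes 3 lower members. *NCSTN*, a subunit of γ-secretase, came nearest with 6.20, 6.20 and 6.00 against 5.39, 5.03 and 5.01 (log2 fold change -0.99, adjusted *P* = 0.0009).

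*REST* was 4.86, 4.95 and 4.52 in parental cells, 2.93, 2.66 and 4.20 in uninduced *N1ICD* cells and 5.05, 5.03 and 4.90 in uninduced *REST* cells. All 3 uninduced *N1ICD* libraries were below the other 6, but library 24 was near them, and the log2 fold change of -1.52 (standard error 0.69) did not pass (adjusted *P* = 0.118). Of 12 genes of REST and its corepressors, 1 was called (8.33%, against 12.1% of all genes), the phosphatase *CTDSP1*, at 3.63, 3.14 and 3.87 over 1.97, 0.59 and 2.86 in parental cells. The median of the list was -0.436.

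Of 21 neuroendocrine markers, 3 were higher and 4 lower, and of 29 transcription factors 3 were higher and 5 lower, with medians of -0.219 and -0.256 (33.3% and 27.6% called, against 12.1% of all genes). Among transcription factors, without libraries 20 and 23 there were 0 higher and 9 lower, and with only the 6 libraries 0 higher and 2 lower. *CHGA*, chromogranin A of secretory granules, was 4.85, 4.65 and 5.28 in parental and 7.49, 6.07 and 6.89 in uninduced *N1ICD* cells (log2 fold change 1.89, standard error 0.31, adjusted *P* = 0.00103). *PCSK1*, the convertase that cuts prohormones in those granules, was 3.16, 2.29 and 2.84 against 4.98, 5.33 and 5.63 (2.55, standard error 0.26, adjusted *P* = 3e-05), and 0.46, 0.25 and 0.14 in uninduced *REST* cells. *CHGB* was also called higher (7.09, 6.43 and 6.48 against 8.55, 8.79 and 6.86), a call lost in 6 alternatives, among them each of those without library 20, 21, 22 or 23. On the other side, the sodium channel *SCN3A* was 10.18, 9.47 and 10.59 against 7.84, 7.06 and 8.38, and *TAGLN3* 5.72, 6.22 and 5.82 against 2.94, 4.53 and 3.46. The carboxypeptidase *CPE* and the synaptotagmin *SYT1* were lower by 1.03 and 1.06, calls that were lost with quantile normalization. Among transcription factors, *NHLH1*, a basic helix-loop-helix factor of neurons, was 7.05, 7.26 and 5.28 against 2.59, 4.07 and 2.64. *ID4*, *ST18* and *NHLH2* were lower by 1.72, 1.38 and 1.29, and *INSM1*, the fifth that was called and named after its values were seen, was 8.11, 7.76 and 8.09 against 6.48, 7.17 and 6.98. *INSM2*, *SOX1* and *TFF3*, a secreted peptide that the list also holds, were the 3 called higher and lost their calls without library 23. *NEUROD1* did not pass (log2 fold change 0.22, standard error 0.42, adjusted *P* = 0.73), and its sign turned to negative without library 20 or 23.

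Of 52 synaptic and neuronal genes, 14 were lower (26.9%, against 7.16% of all genes), 0 higher and 38 not called, with a median of -0.252 and 30.8% of the list above 0. Without libraries 20 and 23 there were 18 lower, and with only the 6 libraries 4 lower, in both cases with 0 higher. *STMN2*, a microtubule regulator of growing axons, was 10.06, 10.52 and 9.14 in parental cells and 3.46, 8.38 and 6.18 in uninduced *N1ICD* cells. *CACNA1A*, the pore of P/Q-type calcium channels, was 9.79, 8.65 and 8.84 against 3.61, 6.93 and 6.35. *DCX*, doublecortin of migrating neurons, was 7.98, 7.15 and 7.02 against 2.79, 4.52 and 5.69, and the synapsin *SYN3* was 5.34, 5.62 and 5.30 against 1.33, 3.79 and 2.78. Library 22 was the lowest of the 3 uninduced libraries in each of these 4 genes. The groups did not overlap in any of them, but the uninduced libraries of *STMN2* were far apart, and all 4 calls were lost with only the 6 libraries in the model. With doxycycline *STMN2* was 5.42, 4.33 and 4.61. Of 21 ion channels and nicotinic receptors, 5 were lower (23.8%, against 7.16% of all genes) and 0 higher. Among them *CHRNB1*, a subunit of the muscle nicotinic receptor, was 1.55, 1.75 and 1.26 in parental and 0.17, 0.48 and 0.32 in uninduced *N1ICD* cells.

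Of 32 genes of the non-neuroendocrine SCLC state, 6 were higher and 4 lower (31.2% called, against 12.1% of all genes, of which 4.94% higher), with a median of 0.158 that became 0.535 with a pseudocount of 0.1. *S100A10* and *S100A6*, small calcium-binding proteins, were 0.95, 0.00 and 0.81 against 4.89, 3.22 and 3.27, and 3.25, 3.42 and 4.34 against 7.69, 5.53 and 4.98. *S100A6* was listed at 0 in all 3 libraries of uninduced *REST* cells. *TNFRSF12A* and the matrix protein *TGFBI* were higher by 1.73 and 1.88. *VIM*, which encodes vimentin, was lower, at 5.26, 3.77 and 3.78 against 5.14, 6.88 and 5.45, and its groups overlapped (log2 fold change -1.55, adjusted *P* = 0.0173, not called without library 20 or 24). *EGFR* was 1.99, 1.62 and 1.55 in parental and 0.04, 0.01 and 0.04 in uninduced *N1ICD* cells, a difference of -1.69 (adjusted *P* = 4.75e-05). *CYR61* and *PLAUR* were the other members that were lower. *AXL* was listed at 0 in all 3 uninduced libraries and in 2 of 3 parental ones. *CD44*, at 0.98, 1.73 and 0.86 against 1.85, 0.48 and 0.03, did not pass (adjusted *P* = 0.435).

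Among 47 genes of epithelial-mesenchymal transition and matrix, 7 were higher and 5 lower (25.5% called, against 12.1% of all genes), for a median of -0.0639. The list holds epithelial as well as mesenchymal genes, so its counts and median give no direction of a transition. *EPCAM*, the epithelial adhesion molecule, was 2.16, 1.92 and 1.79 in parental and 4.60, 3.13 and 3.60 in uninduced *N1ICD* cells. *CLDN4* and *TIMP1* were higher by 1.47 and 1.22, and *COL5A1* by 1.38. The call of *CLDN4* was lost in 7 of 13 alternatives (without library 20, 22 or 23 among them) and that of *COL5A1* in 8 (without library 19, 20, 21, 23 or 24 among them). That of *TIMP1* was lost without library 22 and with only the 6 libraries in the model. *VCAN*, the proteoglycan versican, was 2.70, 2.25 and 3.15 against 0.59, 0.26 and 0.40, and *LOX*, which cross-links collagen, was 2.66, 3.40 and 3.23 against 0.71, 0.83 and 1.39. *TWIST1* and *LOXL2* were lower by 1.43 and 1.44. *EPCAM* is also 1 of the 6 epithelial markers whose summed level differed between the groups, and the part of other cells in it was not tested. With libraries 20 and 23 left out, the list had 2 higher and 9 lower members.

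The 4 markers of tuft-cell-like SCLC were listed at 0 in all parental libraries. *POU2F3*, the factor that defines this SCLC type, was listed at 0 in all 3 parental libraries and had log2 values of 4.58, 0.51 and 1.49 in uninduced *N1ICD* cells, 4.98, 2.15 and 3.57 with doxycycline and 0.18, 0.00 and 0.00 in uninduced *REST* cells. *TRPM5*, a cation channel of taste and tuft cells, was 0 in parental cells, 4.87, 1.05 and 1.28 in uninduced and 6.24, 2.77 and 4.18 in doxycycline-treated *N1ICD* cells. All 6 libraries with the *NOTCH1* vector were above all 3 parental ones, and libraries 22 and 25 were the highest of their groups for both genes. Neither passed (adjusted *P* = 0.0621 and 0.0596), but both were called higher without libraries 20 and 23. *ASCL2* and *GFI1B*, too low to be tested, were at most 1.40 and 0.27. Whether a few cells or many expressed these genes cannot be told apart.

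For antigen presentation, 2 of 19 genes were higher and 1 lower (15.8% called, against 12.1% of all genes), with a median of 0.289 that ran from 0.122 to 0.583 over the alternatives and moved without library 19 or 22 and without libraries 20 and 23. *HLA-E*, a nonclassical MHC class I gene, was 1.46, 1.07 and 1.21 in parental and 2.93, 4.17 and 3.26 in uninduced *N1ICD* cells (log2 fold change 2.21, standard error 0.25, adjusted *P* = 7.05e-05), 5.04, 5.31 and 5.49 with doxycycline and at most 0.03 in uninduced *REST* cells. HLA genes resemble each other, and how the quantification split their reads cannot be seen in these values. *B2M*, the light chain of class I molecules, was lower, at 6.21, 6.49 and 5.40 against 7.27, 7.61 and 6.53 (-1.10, adjusted *P* = 0.0161), although the call was lost without library 19, 20 or 24. *TAP1*, a subunit of the peptide transporter, was 0.80, 0.48 and 0.66 against 0.91, 2.30 and 1.88 and was called higher, but not without library 20, 23 or 24 or with only the 6 libraries in the model. *HLA-B* was 0.59, 0.43 and 0.24 against 1.07, 2.87 and 0.57, *HLA-C* 0.68, 0.07 and 0.20 against 0.57, 2.17 and 0.13, and *PSMB9* 0.72, 0.63 and 0.00 against 0.49, 4.32 and 2.17. None of these 3 passed, and library 23 was the highest of the 6 in each. *TAP2* and *TAPBP* did not pass either (log2 fold changes of 0.46 and -0.62). Of 5 MHC class II genes, *HLA-DPA1* and *HLA-DPB1* were higher (40% called, against 12.1% of all genes). *HLA-DPB1* was 0.88, 0.24 and 1.26 against 3.34, 3.14 and 3.31 (2.47, standard error 0.31, adjusted *P* = 0.000149). The summed myeloid markers, *CD14* among them at 2.46, 1.25 and 1.90 against 4.08, 3.06 and 2.71, were higher in the same libraries, and their part in this was not tested.

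Of 34 interferon-stimulated genes 2 were higher and 5 lower (20.6% called, against 12.1% of all genes), with a median of -0.00283. *USP18* was higher (4.14, 4.37 and 5.39 against 5.62, 5.61 and 6.49), as was *TAP1*, and *DDX60*, *HERC6*, *HERC5*, *GBP1* and *IFIT5* were lower, *DDX60* with 2.88, 3.22 and 2.80 against 0.23, 0.57 and 0.40 (-2.56, standard error 0.22, adjusted *P* = 7.18e-06). The call of *GBP1* held in only 6 of 13 alternatives and was lost without library 19, 20, 22 or 24. *DDX60*, *HERC5* and *HERC6* all lie on chromosome 4, whose genes are described below. Of 17 genes of nucleic acid sensing, *TREX1* and *MYD88* were higher by 1.04 and 1.43 (11.8% called, near the 12.1% of all genes). Both calls were lost with only the 6 libraries in the model, and that of *TREX1* also without library 19, 20 or 22. *TMEM173*, which encodes STING, was 2.49, 2.55 and 2.47 in parental cells and 0.45, 3.25 and 1.43 in uninduced *N1ICD* cells and did not pass (-0.79, standard error 0.48, adjusted *P* = 0.234), but it was called lower without library 23. Of 23 genes of chemokines and NF-κB, the adaptor *TRAF1* was higher and the growth factor *CSF1* lower (8.7% called, below the 12.1% of all genes). *CXCL10* was listed at 0 in all 6 libraries.

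Of 47 cell cycle genes 11 were lower, 1 was higher and 35 were not called (25.5% called, against 12.1% of all genes, of which 7.16% lower), with a median of -0.33. The median of the list was -0.618, -0.296 and 0.0392 in libraries 22, 23 and 24, and library 24 was within the parental range of -0.104 to 0.129. *CDC20*, an activator of the anaphase-promoting complex, was 7.20, 8.03 and 6.76 in parental and 5.19, 5.62 and 6.44 in uninduced *N1ICD* cells. *PLK1* was 6.85, 7.43 and 6.77 against 5.18, 5.40 and 6.72, *AURKA* 4.50, 4.73 and 4.55 against 2.79, 3.18 and 3.94 and *CCNB2* 6.71, 7.35 and 6.34 against 4.34, 5.45 and 6.13. Library 24 was the uninduced library nearest to the parental level in all 4, and for *PLK1*, at 6.72, it was just under the lowest parental library. *CDC6*, which licenses replication origins, was the only member called higher (6.45, 6.46 and 7.24 against 8.37, 7.54 and 8.57). With only the 6 libraries in the model, limma called 0 of the 47 (14 had an unadjusted *P* under 0.05), and without libraries 20 and 23, 7 were lower and 1 higher. In the *MYC* family *MYC* itself was higher, with 11.19, 9.99 and 9.19 over 8.89, 8.92 and 8.99, with library 22 highest and library 24 closest to the parental libraries (log2 fold change 1.19, standard error 0.40, adjusted *P* = 0.041). This call was lost in 8 of 13 alternatives. The antagonists *MXD3* and *MXI1* were lower by 1.14 and 1.04.

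Of 30 stress response genes 7 were lower and 0 higher (23.3% called, against 12.1% of all genes), with a median of -0.734, and with only the 6 libraries in the model 1 was lower. *SLC7A11*, the cystine transporter, was 5.14, 3.69 and 5.12 in parental and 1.80, 1.82 and 1.83 in uninduced *N1ICD* cells (-2.83, standard error 0.49, adjusted *P* = 0.00136), and 5.88 on average with doxycycline. *ASNS*, asparagine synthetase, was 6.80, 7.93 and 6.15 against 4.90, 5.16 and 4.36, *DDIT3* 6.85, 8.03 and 6.10 against 4.97, 5.77 and 4.31 and *NUPR1* 4.80, 5.91 and 3.80 against 0.72, 2.89 and 0.30. These 3 are known targets of the factor ATF4. Library 20 was the highest of the parental libraries in each of them, and without libraries 20 and 23 the list had 9 lower and 1 higher members. Of 27 genes of cholesterol and lipid synthesis 7 were lower and 1 higher (29.6% called), with a median of -0.484. The median of the list was -0.756, -0.698 and 0.0546 in libraries 22, 23 and 24, and library 24 was within the parental range of -0.33 to 0.141. *MSMO1* was 5.71, 6.85 and 5.99 against 2.70, 4.73 and 3.65, and *FDFT1* 10.02, 11.38 and 10.10 against 7.42, 8.68 and 8.87. *SREBF2*, the factor that drives this pathway, was 8.82, 8.71 and 8.44 against 6.12, 7.99 and 7.45. With only the 6 libraries in the model, limma called 0 of the 27 (11 had an unadjusted *P* under 0.05). Of 28 genes of hypoxia and glycolysis, *EGLN3* was higher and *PFKP* lower (7.14% called, below the 12.1% of all genes). The library medians of this list were -0.300, 0.857 and -0.0823 for libraries 22, 23 and 24.

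Beside *IGF1R* and *INSR*, 1 of 24 growth factor receptors and ligands was higher (*GAS6*, by 1.02) and 4 were lower, which were *EGFR*, *VEGFC*, *FGFR1* and *FGFR4*. Of this list 29.2% were called, against 12.1% of all genes. The call of *GAS6* held in only 6 of 13 alternatives and was lost without library 19, 20, 21 or 23. *FGFR4* was 1.70, 2.08 and 1.92 against 0.35, 0.89 and 0.91. Of 36 genes of the WNT, TGF-β and BMP pathways 2 were higher and 7 lower (25% called, against 12.1% of all genes), with a median of -0.183. *BMP2* was 3.55, 2.89 and 3.21 against 2.00, 0.89 and 0.19, and *GREM1*, an inhibitor of BMPs, 1.81, 1.64 and 1.65 against 0.14, 0.08 and 0.09. Among 18 imprinted genes 2 were higher and 4 lower (33.3% called, against 12.1% of all genes). *GRB10*, an adaptor that restrains insulin and IGF1 receptors, was 6.58, 6.29 and 6.72 against 4.48, 3.97 and 4.92 (-2.07, standard error 0.22, adjusted *P* = 3.77e-05), *GNAS* was lower by 1.79 and *MEG3* by 1.20. *H19* was 0.27, 1.01 and 1.44 against 2.16, 4.77 and 2.95, and 12.99 on average with doxycycline. Its call was lost without library 19 or 23 and with only the compared groups in the model. Of 16 genes matched by the names of cancer-testis families, which include DDX helicases of other function, *MAGEA2* and its near-identical copy *MAGEA2B* were lower. *MAGEA2* was 5.92, 5.61 and 5.96 against 3.45, 1.49 and 0.93. Clustered protocadherins (2 of 18 lower), epigenetic regulators (2 of 24 lower, *DNMT3B* and *KDM6B*), cell death genes (1 higher and 2 lower of 26) and genes of drug efflux and selection (1 of 8 higher, *SLFN13*) gave the rest. Called shares of 8.33% to 12.5% in these 4 lists were close to the 12.1% of all genes.

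**Figure D3:**
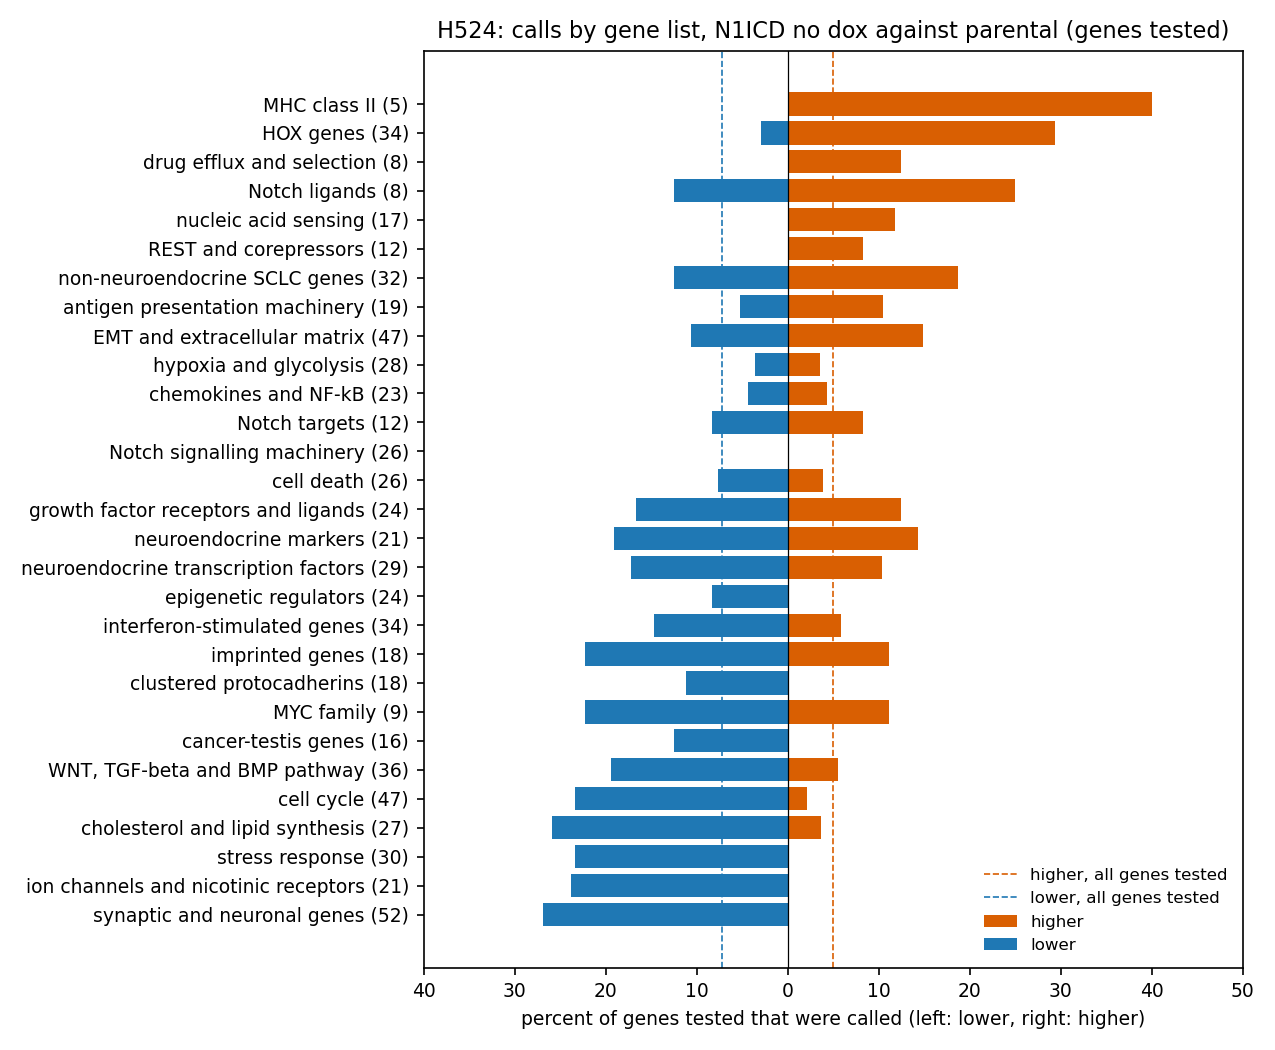
For the lists with at least 5 genes tested, cell type markers left out, bars give the percent of those genes that were called higher (right) or lower (left) in uninduced *N1ICD* cells, with the number tested in brackets, and dashed lines give the same for all 13648 genes (4.94% higher, 7.16% lower). Among the lists drawn, the 5 MHC class II genes and the HOX genes reach furthest to the right, and synaptic and neuronal genes, at 26.9%, furthest to the left with no member higher.

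The differences were not spread evenly over the genome. Over the 13476 tested genes with a GRCh37 position, the median log2 fold change of a chromosome's genes ranged from -0.479 for chromosome 8 (464 genes) to 0.574 for chromosome 13 (256 genes). Over all 13648 genes tested, 4.94% were called higher and 7.16% lower. On chromosome 13, 85.5% of the genes were above 0 and 50 were called higher against 3 lower. Its median was 0.310, 0.791 and 0.644 in libraries 22, 23 and 24, each taken against the parental mean, and 0.0193, -0.187 and 0.148 in the parental libraries themselves. On chromosome 4 (470 genes) the median was -0.45, 105 genes were called lower and 10 higher, and the library medians were -0.538, -0.441 and -0.452 against 0.0364, -0.0673 and 0.0393 in parental libraries. Chromosomes 8 and 1 were low as well, with library medians of -0.426 to -0.483 and -0.321 to -0.379. Chromosomes 17, 14 and 9 were high, with medians of 0.322, 0.292 and 0.277. The 3 uninduced libraries were outside the range of the parental ones on each of these 7 chromosomes, which are all those with a median at least 0.25 from 0.

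The same shifts were present with doxycycline, where the medians against parental cells were 0.686 for chromosome 13, -0.444 for chromosome 4 and -0.487 for chromosome 8. These share the parental libraries with the values above. In uninduced *REST* cells the chromosome medians against parental cells ran only from -0.289 (chromosome 13) to 0.113 (chromosome 4). In H69 cells the medians of the same comparison were between -0.0564 and 0.187, whereas in H82 cells they were between -0.36 (chromosome 4) and 0.249 (chromosome 9), with -0.325 for chromosome 13. In windows of 10 Mb with at least 10 genes tested, 11 of 288 had a median of at least 0.5 and 31 a median of at most -0.5. Chromosome 13 gave 6 of the first, out of its 8 windows, and chromosome 4 gave 10 of the second, out of 17. The lowest window (chromosome 4, 170000001 to 180000000) had a median of -1.07 over 20 genes, 11 of which were called lower. Of all genes tested, 7.16% were called lower and 4.94% higher. The last part of chromosome 17 (70000001 to 80000000) had a median of 0.592 over 143 genes, with 34 called higher and 0 lower, and both ends of chromosome 7 differed in sign, with -0.701 over the 64 genes of its first 10 Mb and 0.522 over the 47 genes from 150000001 on. The number of DNA copies was not measured in these libraries, and its part in these values was not tested.

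**Figure D4:**
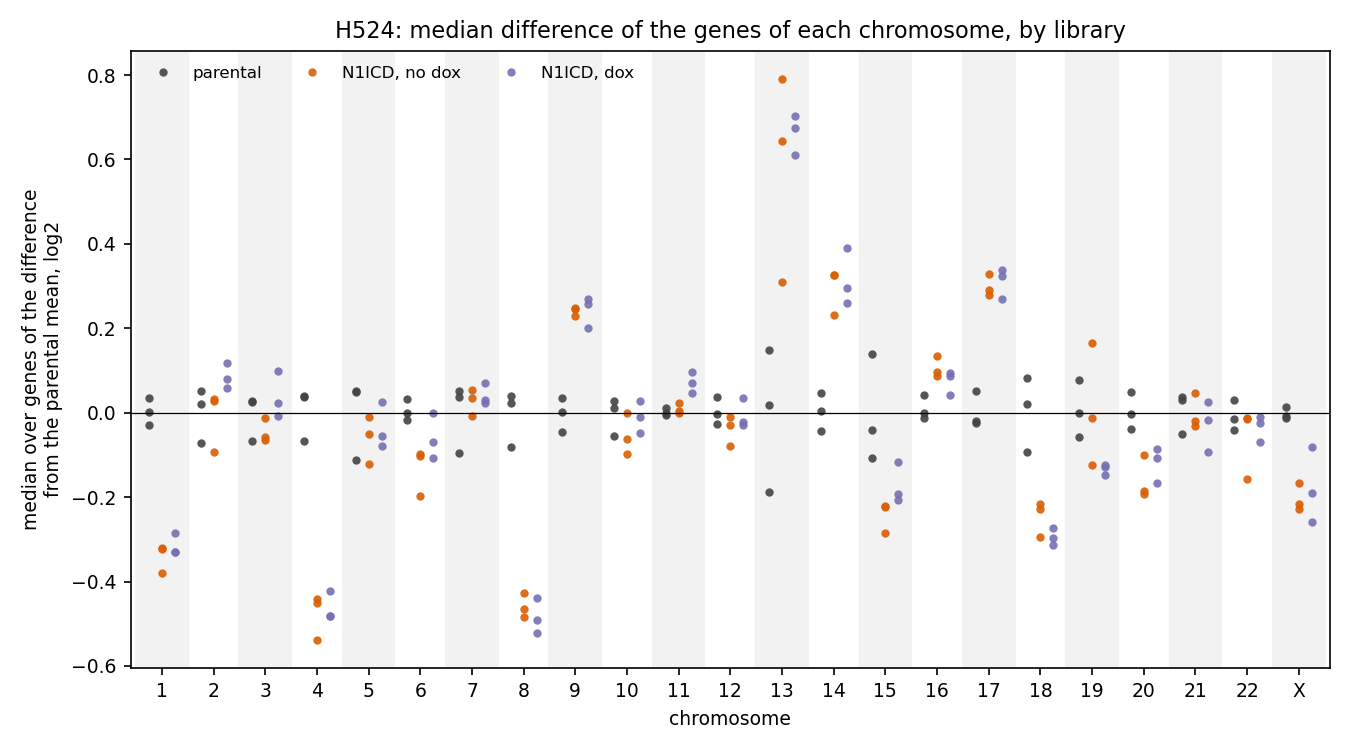
For each chromosome, points give the median over its tested genes of the difference from the parental mean, in log2 units, in every library of parental (dark grey), uninduced *N1ICD* (orange) and doxycycline-treated *N1ICD* cells (purple). Orange and purple points lie together and away from the grey ones on chromosomes 1, 4, 8, 9, 13, 14 and 17, with chromosome 13 highest and chromosomes 4 and 8 lowest.

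Set against the other uninduced H524 line, the uninduced *N1ICD* cells differed in more genes than against parental cells, with 2385 (17.5%) called, 1049 higher (7.69%) and 1336 lower (9.79%). The *REST* line itself differed from parental cells in 36 genes (0.264%), 3 higher (0.022%) and 33 lower (0.242%), a count that was 19 with no filter on low values and 95 with a pseudocount of 0.1. These comparisons share libraries with each other. Some genes were high in uninduced *N1ICD* cells and low in uninduced *REST* cells, with parental cells between. *SNTB1* differed by 9.88 between the 2 engineered lines (standard error 0.35, adjusted *P* = 2.12e-09), *S100A6* by 6.07, *GSTP1* by 5.83, *INSR* by 5.32, *TAGLN2* by 5.14 and *PCSK1* by 5.03. Each of these 6 was also called lower in *REST* than in parental cells, by 3.89, 3.67, 1.75, 2.39, 1.60 and 2.48. For other genes the *REST* line was near the parental level, as for *CTSF* (-5.87 against the *REST* line and -6.33 against parental cells), *BASP1* (-4.53 and -4.48), *IGF1R* (4.05 and 3.94), *HOXB13* (4.47 and 4.34) and *FBXO17* (4.86 and 4.49). Of 13648 genes tested, 523 were called higher and 752 lower against both groups, without overlap with either. Against parental cells alone 674 were called higher and 977 lower, and the groups did not overlap for 30.6% of all genes tested.

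The same vector came with other differences in other lines. In a model of 18 libraries the difference between uninduced *N1ICD* and parental cells was itself different between H524 and H82 cells for 2012 of 14244 genes (14.1%; 5.9% in the higher and 8.23% in the lower direction). Between H524 and H69 cells it was different for 1739 genes (12.2%, with 5.04% higher and 7.17% lower). *SNTB1* was at most 0.42 in H82 and 0.18 in H69 cells, and its difference was -0.19 in H82 (standard error 0.31) and 0.06 in H69 cells, against 5.99 in H524 cells. *GSTP1*, which H82 and H69 cells express at 6.72 to 9.38, differed by 0.10 and -0.02 there and by 4.08 in H524 cells. *HOXB9* was 8.37, 8.74 and 8.62 in parental H69 cells and lower by 2.17 with the vector, the opposite direction. *BASP1* differed by 0.51 in H82 and 0.42 in H69 cells and by -4.48 in H524 cells. *H2AFJ*, a histone H2A variant, was 5.54, 4.54 and 3.72 in parental H82 cells and listed at 0 in all 3 uninduced H82 libraries, while in H524 cells it was 2.50, 2.46 and 1.38 and then 4.31, 6.24 and 6.28.

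**Figure D5:**
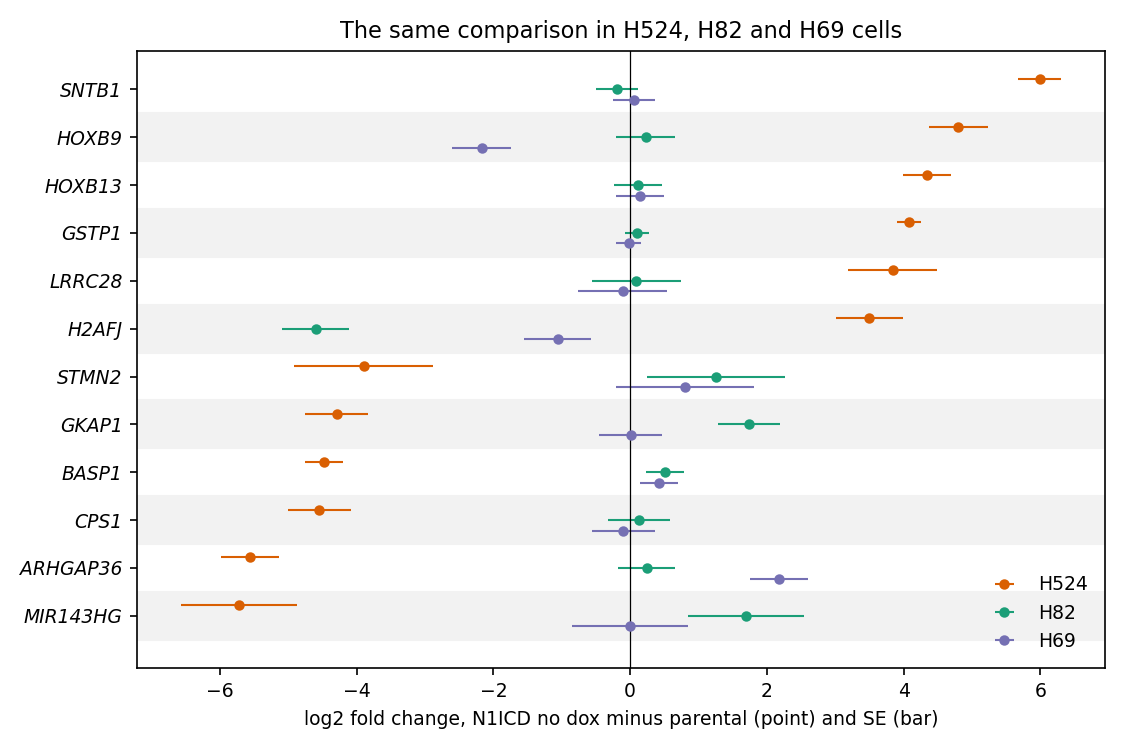
Points give the log2 fold change between uninduced *N1ICD* and parental cells in H524 (orange), H82 (green) and H69 (purple) for the 12 genes that differ most between H524 and both other lines, with bars of 1 standard error. H82 and H69 lie near 0 for *SNTB1*, *HOXB13*, *GSTP1*, *LRRC28* and *CPS1*, while H524 runs from -5.72 for *MIR143HG* to 5.99 for *SNTB1*.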

How the data were processed

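RNA-Seq values of 60 human libraries were used, of which 15 are of H524 cells. The authors extracted polyA RNA, made stranded libraries, trimmed reads with Cutadapt, used STAR on hg19 and RSEM for alignment and quantification, and formed RPKM scaled by edgeR's TMM factors, and they deposited log2 values of RPKM + 1 for 20516 genes. Tool versions and the annotation are not given in the sources used here. The pseudocount of 1 was read from the floor of 0. The mouse table, normalized separately, was not used.

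Genes that reached a log2 value of 1 in 3 or more H524 libraries were tested with limma 3.58.1 in R 4.3.3, with a mean for each of the 5 H524 groups, a variance trend, two-sided *P* and Benjamini-Hochberg adjustment over all genes tested. The cross-line model held the parental and uninduced *N1ICD* groups of H524, H82 and H69. A call needed an adjusted *P* under 0.05 together with a difference of 1 log2 unit or more. Read counts are not in the table, so depth is known only relative to other libraries, from the steps between low values, and no counting error can be given. Positions came from a GRCh37 annotation (20101 genes). Figures used matplotlib 3.10.9. The fit was run on simulated data in which the spread of a gene was the same in all groups. The compared groups varied more than the other H524 groups, so this run cannot give the rate of false calls here.

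The members, the 30 gene lists and 7 marker lists, and the tests were chosen with earlier results of these data known. Named genes were those the study names, up to 15 in each direction called without overlap of the groups and with a mean of 2 or more in the higher group, up to 4 called members of each list and direction (up to 3 of smallest *P* where fewer than 2 were called), up to 8 in each direction also called against *REST* cells, and up to 6 in each direction that differ most between lines. Other list members are named where the text says so or to complete a count, and some that the rule names are not reported here. Alternatives were no filter, only the compared groups, quantile normalization, a pseudocount of 0.1, no trend, centring each library on its median, and leaving out each library. Leaving out libraries 20 and 23 was added after seeing the data.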

Additional observations from a re-analysis of the deposited data

Results flagged for a closer look

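The difference between uninduced *N1ICD* and parental cells departed from that in H82 and from that in H69 cells, by limma's test of the difference itself, for 237 genes that were higher and 389 that were lower in H524 cells. The count required a call in the same direction in H524 cells alone, where 674 were higher and 977 lower (4.94% and 7.16% of 13648 tested). Over all 14244 genes of the cross-line model, the difference was called for 14.1% against H82 and for 12.2% against H69. The 12 genes below differ most. For *SNTB1* the H524 difference exceeded that in H82 by 6.18 and that in H69 by 5.92. For *HOXB9* it exceeded them by 4.58 and 6.98, for *H2AFJ* by 8.10 and 4.56, for *HOXB13* by 4.22 and 4.19, for *GSTP1* by 3.98 and 4.10, and for *LRRC28* by 3.75 and 3.96. On the lower side the differences from H82 and H69 were -5.80 and -7.74 for *ARHGAP36*, -7.41 and -5.72 for *MIR143HG*, -4.99 and -4.90 for *BASP1*, -5.16 and -4.70 for *STMN2*, -4.68 and -4.45 for *CPS1* and -6.03 and -4.30 for *GKAP1*. In H82 cells library 4 stood apart from the other uninduced libraries, and the count of genes that differed between H524 and H82 was 3205 without it. With groups of 3 libraries no test for a library far from the others of its group was made.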

How the results depend on the processing

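The table holds no read counts, so precision rests on 3 libraries a group, and of the 137 named genes called, 58 kept their call in all 13 alternatives and 79 lost it in at least 1. With only the compared groups in the model, the calls against parental cells were 548 (204 higher and 344 lower) and those of the difference between H524 and H82 were 954. The count for the *REST* line was 19 with no filter and 95 with a pseudocount of 0.1. Leaving out 1 library gave 1363 to 2247 calls against parental cells (464 to 880 higher, 771 to 1373 lower), highest without library 23, and 1990 to 2853 against *REST* cells. It gave 17 to 52 calls for the *REST* line, 1288 to 3205 for the difference from H82 and 1309 to 2190 for that from H69. The cause of these changes was not tested, and neither was the part of the fewer libraries behind the spread. Among named genes, 4 turned their sign or fell to 0.00, none of them called. *AXL* was 0.00 without library 21 (-0.07 to 0.00 over single libraries), *CD44* 0.02 and *HLA-C* -0.09 without libraries 20 and 23, and *NEUROD1* -0.13 without library 20, -0.08 without library 23 and -0.44 without both (-0.13 to 0.48 over single libraries). No paired analysis was possible because each library number belongs to 1 library and is shared by no groups compared.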

Other observations

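Some genes differed more among the 3 uninduced *N1ICD* libraries than between the groups, and the examples here were chosen after their values were seen. *PDK4*, which restrains pyruvate dehydrogenase, was 1.38, 8.76 and 3.67 in libraries 22, 23 and 24, against 4.53, 3.58 and 5.08 in parental cells and 14.11, 14.62 and 14.26 with doxycycline. *GDF15*, a stress-induced cytokine, was 0.00, 7.22 and 3.04, and *MB*, myoglobin, 0.00, 6.81 and 2.68. *HSPA6*, an inducible heat shock protein, was 4.35, 7.92 and 0.02. Library 23 was the highest of the 3 in each of these 4 genes. None of the 4 was called.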
